A study of Mus musculus with 20 samples.

Results

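The BCL-2 family decides whether the outer membrane of mitochondria stays closed or is opened to release cytochrome c, and 10 of its genes were followed in whole mouse kidney by poly(A) RNA sequencing. The genes were taken by symbol, with no threshold on their values but with earlier results of these data known, and all 10 were found among the 55822 genes of the table. They are Bcl2, Bcl2l1 and Mcl1, whose proteins keep cells alive, Bax and Bak1, whose proteins form the pore, and Bbc3, Pmaip1, Bcl2l11, Bid and Bik, whose BH3-only proteins start the process. The series holds 20 samples in 4 groups of 5. This account uses 2 of the groups, both of male C57BL/6J mice of 8 weeks. Controls received phosphate-buffered saline (PBS), and the other group received puberulic acid, a tropolone made by some Penicillium moulds, at 1 mg per day. Doses were given once a day for 6 days, followed by a day without treatment, and organs were taken on day 7. The design text names oral dosing and the protocol also allows injection into the peritoneum, and the route of each sample is not known. The 2 other groups received a normal or a toxic lot of the supplement Choleste-Help. The names of 10 columns do not show which lot they hold, and these groups are not analysed here.

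Pro-survival members bind the pore formers and the BH3-only proteins in a groove and hold them inactive. BH3-only proteins are the sensors: transcription of Bbc3 (PUMA) and Pmaip1 (NOXA) is known to be raised by the tumour suppressor p53, Bcl2l11 (BIM) answers to loss of growth factors and to endoplasmic reticulum stress, and Bid is cut by caspase 8 downstream of death receptors. In kidney, loss of tubule cells after toxic or ischaemic injury is known to run partly through Bax and Bak1. Transcript levels do not show protein amount or activity, and a gene count sums splice forms, which for Bcl2l1, Mcl1 and Bcl2l11 can differ in function.

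Promoter sequences of 300 bases from RefSeq (build GRCm38.p6) matched 8 of the 10 members, with 13 start sites among them. They are given because Bax and Bak1, the pore formers, rose together. The p53 half-site consensus, searched on both strands with no mismatch, was found in 1 of the 13, that of Bax, and in 8.36% of the 32851 promoters of that length in the table. No start site of Bbc3 held a match, and Pmaip1 and Bik had no promoter sequence to search. The 250 bases before the start of each of the pore formers are printed 5′ to 3′ on the strand of the gene, with the half-site in capitals. The match in Bax begins 201 bases before the start. Bak1 holds no match in this window, which says only that these letters are not there.
Bax, chr7:45466899-45467148, minus strand: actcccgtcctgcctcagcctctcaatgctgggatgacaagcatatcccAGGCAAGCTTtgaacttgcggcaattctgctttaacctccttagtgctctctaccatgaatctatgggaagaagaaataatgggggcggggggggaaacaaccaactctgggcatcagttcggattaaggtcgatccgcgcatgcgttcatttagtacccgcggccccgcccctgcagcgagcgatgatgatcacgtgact
Bak1, chr17:27028628-27028877, minus strand: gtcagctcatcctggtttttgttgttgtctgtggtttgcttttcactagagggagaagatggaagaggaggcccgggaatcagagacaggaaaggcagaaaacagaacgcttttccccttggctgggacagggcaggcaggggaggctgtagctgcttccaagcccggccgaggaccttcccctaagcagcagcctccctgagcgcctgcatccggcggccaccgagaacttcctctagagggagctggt

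The 5 control libraries held 18409877 to 22725274 estimated counts, and the 5 puberulic acid libraries 19897287 to 24705587. Levels are given in CPM, the usual library-size-scaled count of edgeR, after trimmed mean of M-values (TMM) scaling, and calls are genes with a p-value under 0.05 in the quasi-likelihood test of edgeR, adjusted over 16266 genes by the Benjamini-Hochberg method. Most of the transcriptome moved: 65.3% of the genes tested were called, 34.2% higher and 31.1% lower. The markers of the kidney were present in controls. With puberulic acid all 6 proximal tubule markers were called lower, their summed level going from 7111 to 11248 CPM in controls to between 259.1 and 879.6 CPM, and 3 of 3 markers of injured tubule were called higher. Of 6 markers of the loop of Henle, distal tubule and collecting duct 5 were called lower, among them Calb1, Aqp2 and Atp6v1b1, with log2 fold changes of -1.93, -1.36 and -1.18. Of 4 podocyte and 4 endothelium markers, 1 each was called, lower. With total counts the 6 proximal tubule calls were kept, while of the 6 from later segments Calb1, Aqp2 and Atp6v1b1 were still called lower and Umod was called higher. The podocyte and endothelium calls were lost, and another podocyte marker, Synpo, was called higher at 0.79. Whether fewer cells of a type or less RNA per cell lies behind a lower level cannot be told apart in whole tissue. Scaling also matters here: dividing by total counts instead of TMM-corrected totals raises the median gene by 0.51 on the log2 scale, and the values below are relative to TMM scaling. The share of counts from the mitochondrial genome was 18.8% to 22.2% in the control group and 10.5% to 13.8% in the other, and its part in that shift was not tested.

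Of the 10 members, 7 were called higher and 2 lower with puberulic acid, and Bcl2 was not called. All 10 passed the filter on low counts. For 9 members no puberulic acid sample fell inside the control range, beside 50.1% of all genes tested. The median log2 fold change of the members was 0.70 and that of all genes tested 0.05. The 9 called of 10 stand beside 65.3% of all genes, and the 7 higher beside 34.2%. With total counts 8 members were called higher and 1 lower, beside 56.4% and 15.5% of all genes (72% in either direction). Both pore formers, 2 of 3 pro-survival members and 3 of 5 BH3-only members were called higher, so genes of opposing function rose in the same kidneys.

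**Figure D1:**
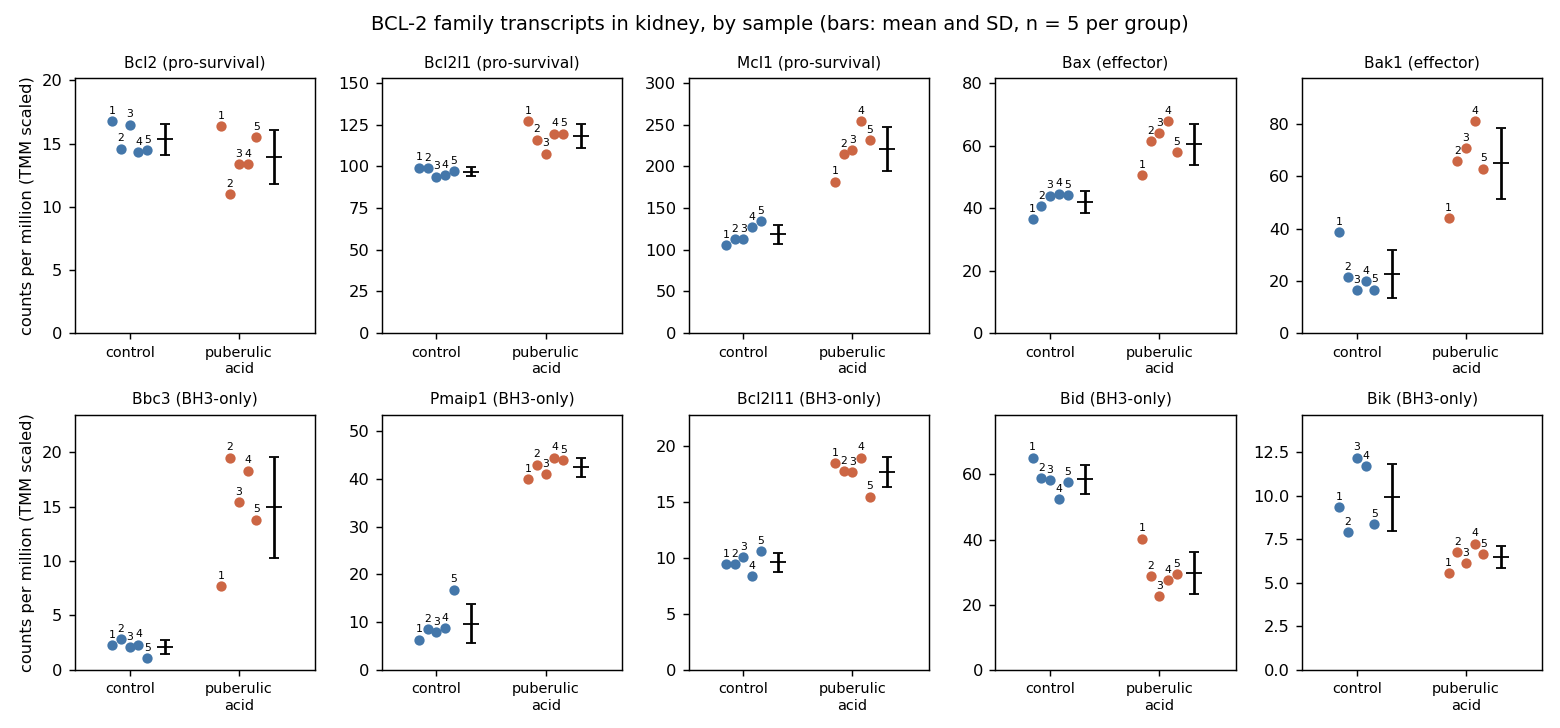
Level of each of the 10 genes in CPM (vertical axis, TMM scaled, from 0) in the 5 control and 5 puberulic acid samples, numbered by replicate, with the mean and SD beside them. The groups overlap only for Bcl2. Control replicate 1 of Bak1 (38.7 CPM) and control replicate 5 of Pmaip1 (16.8 CPM) stand above the other controls.

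Among the pro-survival members, Mcl1 rose most. Its short-lived protein holds Bak1 and binds NOXA. Mcl1 stood at 105.6, 112.7, 113.0, 126.8 and 134.1 CPM in control replicates 1 to 5 and at 181.6, 214.2, 219.5, 254.4 and 231.7 CPM in puberulic acid replicates 1 to 5. Every puberulic acid sample lay above every control, with replicate 1 the lowest of its group. The log2 fold change was 0.90 ± 0.10 (SE, n = 5 in each group, edgeR adjusted p = 1.29e-05), or 1.86-fold.

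Bcl2l1, which encodes BCL-XL, the partner of Bax, Bak1 and most BH3-only proteins, rose by much less. Controls had 99.2, 99.1, 93.8, 94.8 and 97.3 CPM and puberulic acid samples 127.2, 116.0, 107.6, 119.5 and 119.5 CPM. The controls were close together, and the lowest puberulic acid sample still lay above them. This corresponded to a log2 fold change of 0.28 ± 0.07 (SE, n = 5 in each group, edgeR adjusted p = 0.0031). Its size followed the scaling, with 0.79 when total counts were used.

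Bcl2, the founding member of the family, gave no call. It had 16.8, 14.6, 16.5, 14.3 and 14.5 CPM in controls and 16.4, 11.0, 13.4, 13.4 and 15.5 CPM with puberulic acid, and the groups overlapped. The log2 fold change of -0.14 ± 0.12 (SE, n = 5 in each group, edgeR adjusted p = 0.339) became 0.37 with total counts (edgeR adjusted p = 0.0201), so neither its direction nor its call is independent of the scaling.

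Both pore formers rose, Bak1 more than Bax in fitted size. Bak1 encodes the pore former that resides on mitochondria. It stood at 38.7, 21.4, 16.5, 20.0 and 16.6 CPM in controls and at 43.9, 65.9, 70.8, 81.2 and 62.9 CPM with puberulic acid. Control replicate 1 was nearly as high as puberulic acid replicate 1, the lowest of its group, and the ranges did not overlap. The log2 fold change was 1.52 ± 0.24 (SE, n = 5 in each group, edgeR adjusted p = 0.000147), or 2.86-fold, and it was 1.79 in the fit without control replicate 1.

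Bax encodes the pore former that moves from the cytosol to mitochondria when activated. Controls had 36.5, 40.7, 44.0, 44.6 and 44.2 CPM, and puberulic acid samples had 50.6, 61.5, 63.9, 67.9 and 57.9 CPM. All 5 puberulic acid samples were above the controls, again with replicate 1 the lowest. This corresponded to a log2 fold change of 0.52 ± 0.09 (SE, n = 5 in each group, edgeR adjusted p = 0.000412), or 1.44-fold. Whether the p53 half-site printed above in its promoter had a part in this rise was not tested.

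The BH3-only members moved in both directions. Bbc3, which encodes PUMA, had the largest fold change of the 10 from the lowest control level in CPM. It was at 2.23, 2.79, 2.10, 2.31 and 1.04 CPM in controls, from 16 to 53 counts per library, and at 7.68, 19.5, 15.4, 18.3 and 13.8 CPM with puberulic acid. Replicate 1 was the lowest of the puberulic acid group, and it was still above the highest control. The log2 fold change was 2.82 ± 0.29 (SE, n = 5 in each group, edgeR adjusted p = 5.19e-06), or 7.09-fold.

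Pmaip1 encodes NOXA, which binds MCL-1 and targets it for breakdown. Controls had 6.33, 8.49, 7.89, 8.66 and 16.8 CPM, and the puberulic acid samples lay within a narrow band at 39.9, 43.0, 41.0, 44.5 and 44.0 CPM. Control replicate 5 stood above the other controls and far below every puberulic acid sample. This corresponded to a log2 fold change of 2.14 ± 0.22 (SE, n = 5 in each group, edgeR adjusted p = 4.52e-06), or 4.42-fold.

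Bcl2l11 encodes BIM, which binds all the pro-survival proteins. It was at 9.47, 9.44, 10.1, 8.41 and 10.6 CPM in controls and at 18.5, 17.8, 17.7, 19.0 and 15.5 CPM with puberulic acid. The groups were well apart and each was tight. The log2 fold change was 0.88 ± 0.10 (SE, n = 5 in each group, edgeR adjusted p = 1.34e-05), or 1.84-fold.

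Bid links death receptors to mitochondria, and its transcript fell. Controls had 65.2, 58.9, 58.2, 52.5 and 57.6 CPM, and puberulic acid samples 40.3, 28.7, 22.6, 27.6 and 29.3 CPM. Every puberulic acid sample lay below every control, with replicate 1 the highest of its group. This corresponded to a log2 fold change of -0.98 ± 0.13 (SE, n = 5 in each group, edgeR adjusted p = 4.96e-05), and it was -0.47 with total counts (edgeR adjusted p = 0.00726).

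Bik encodes a BH3-only protein found mainly at the endoplasmic reticulum. It stood at 9.36, 7.91, 12.2, 11.7 and 8.38 CPM in controls and at 5.57, 6.77, 6.14, 7.25 and 6.65 CPM with puberulic acid. The ranges lay close but did not overlap. The log2 fold change was -0.61 ± 0.16 (SE, n = 5 in each group, edgeR adjusted p = 0.00427). The call was lost with total counts, where the log2 fold change was -0.10 (edgeR adjusted p = 0.58).

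**Figure D2:**
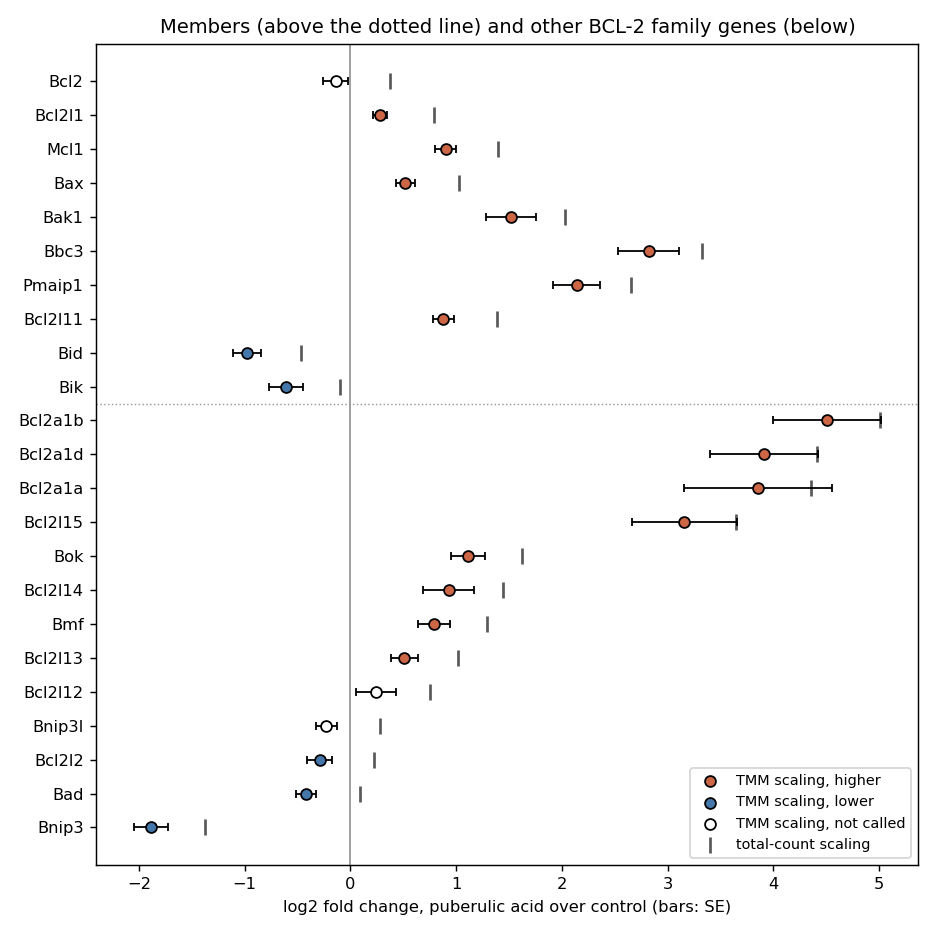
Log2 fold change of puberulic acid over control (horizontal axis, bars are SE) for the 10 members above the dotted line and the 13 other family genes tested below it. Orange points were called higher, blue lower, white not called under TMM scaling, and grey ticks mark the value with total-count scaling. Every tick lies to the right of its point, and for Bcl2, Bcl2l2, Bad and Bnip3l the tick lies on the other side of 0.

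Ratios of 2 members within a sample do not depend on how libraries are scaled. Their change between groups can be read, their absolute size cannot, since gene lengths differ, and no test was made of them. The ratio of Bcl2l1 to Mcl1 counts had medians of 0.830 in controls (0.725 to 0.939) and 0.516 with puberulic acid (0.470 to 0.700), with no overlap. The weight within these 2 pro-survival transcripts thus lay more with Mcl1 in every puberulic acid sample than in any control. The ratio of Bax to Bcl2, often used as an index of readiness for apoptosis, had medians of 2.78 (2.17 to 3.11) and 4.78 (3.09 to 5.58). It was higher in puberulic acid replicates 2 to 5 than in any control, while replicate 1, at 3.09, lay within the controls.

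The ratio of Bax to Bcl2l1 overlapped between the groups, with medians of 0.454 in controls (0.368 to 0.470) and 0.530 with puberulic acid (0.398 to 0.594). The ratio of Bak1 to Mcl1, a pore former and one of its guards, had medians of 0.158 in controls and 0.308 with puberulic acid. Control replicate 1, at 0.366, was above all puberulic acid samples (0.242 to 0.322), and the other controls were at 0.123 to 0.189, below all of them.

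**Figure D3:**
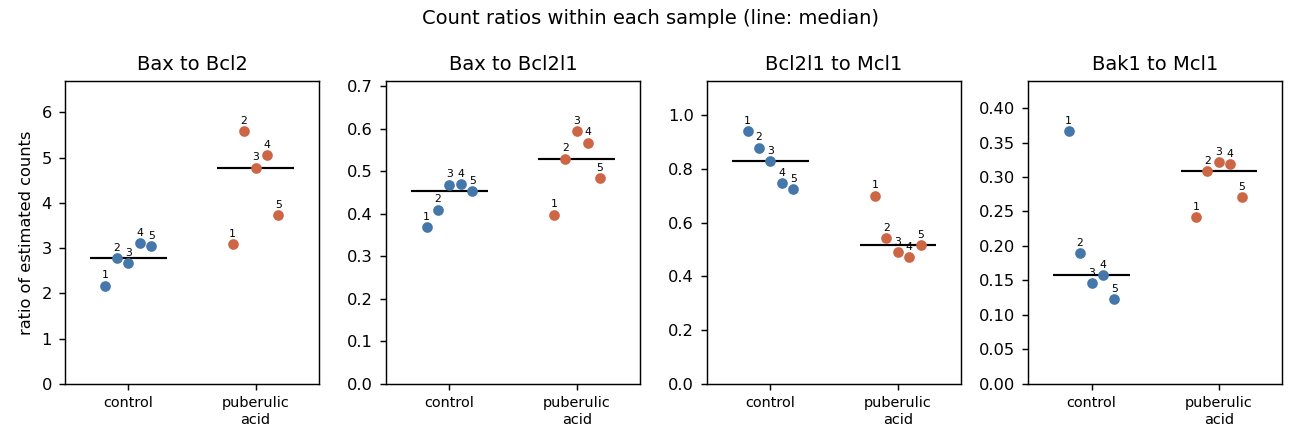
Ratio of estimated counts of 2 members within each sample (vertical axis, from 0), for 5 control and 5 puberulic acid samples numbered by replicate, with the group median as a line. The groups are apart for Bcl2l1 to Mcl1 only, and control replicate 1 (0.366) is the highest of all samples for Bak1 to Mcl1.

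Levels of different genes can be set side by side only per length, here as CPM per kilobase of the longest coding transcript in GENCODE M21. In controls Bax (38.2 ± 3.12, SD, n = 5), Bcl2l1 (37.7 ± 0.950) and Mcl1 (34.7 ± 3.41) led, and these 3 did not differ beyond their spread. Bid followed at 26.7 ± 2.08 (SD, n = 5), then Bak1 at 9.48 ± 3.86 and Bik at 7.42 ± 1.45, the last 2 overlapping. Pmaip1, Bcl2, Bcl2l11 and Bbc3 had 3.53, 2.14, 1.90 and 1.15 CPM per kilobase on average. With puberulic acid Mcl1 led at 64.5 ± 7.78 (SD, n = 5), ahead of Bax at 54.9 ± 5.95, Bcl2l1 at 45.9 ± 2.76 and Bak1 at 27.2 ± 5.72. The ranges of Mcl1 and Bax overlapped, as did those of Bax and Bcl2l1. Bid, next after the 3 leading genes in controls, came after Bak1 and Pmaip1 at 13.6 ± 2.96 (SD, n = 5), with a range that overlapped that of Pmaip1. The means of these 4 leading genes with puberulic acid kept their order when the median length of the coding transcripts was used, while the order of the lead in controls and that of the lower genes did not.

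Levels differed between samples within the puberulic acid group. Replicate 1 was the sample closest to the control mean for 6 of the 10 members, Bax, Bak1, Bbc3, Pmaip1, Bid and Mcl1. For Pmaip1 the margin was small, 39.9 CPM against 41.0 CPM in replicate 3. The same count was not made over all genes, so it cannot be read as particular to the members. It was the farthest for Bcl2l1 and Bik, so its position was not the same for all members. The same sample had the highest summed proximal tubule markers of its group, 879.6 CPM against 259.1 to 368.3 CPM. Its summed leukocyte markers were the lowest, 109.5 CPM against 226.3 to 408.1 CPM. Their part in the position of this sample was not tested. The 9 calls were kept in each of the 10 fits that left out 1 sample.

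The list of other family genes held 15, of which 13 passed the filter on low counts, 8 were called higher and 3 lower, beside 34.2% and 31.1% of all genes. With total counts 10 were called higher and 1 lower, beside 56.4% and 15.5%. The pro-survival A1 genes Bcl2a1a, Bcl2a1b and Bcl2a1d, known from leukocytes and as targets of NF-kappaB, were called higher. Bcl2a1b went from 0.623 to 1.37 CPM in controls to between 4.31 and 34.8 CPM with puberulic acid. This was a log2 fold change of 4.51 ± 0.51 (SE, n = 5 each, edgeR adjusted p = 9.81e-06). Bcl2a1d and Bcl2a1a had log2 fold changes of 3.91 ± 0.51 and 3.86 ± 0.70 (SE, n = 5 each, edgeR adjusted p = 3.06e-05 and 0.000406), and that of Bcl2a1a was 4.62 without control replicate 4. Within the puberulic acid group all 3 were lowest in replicate 1 and highest in replicate 4.

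The A1 genes are near-identical copies, and how reads shared among them were divided is not known, so single values are uncertain. The likeness reaches into their promoters, of which 100 bases around a match to the letters TGANTCA are printed to show it, with the match in capitals. TGANTCA, searched on both strands, was found in 7.81% of all promoters in the table. The first 50 bases of the stretches of Bcl2a1a and Bcl2a1b were identical at 50 positions, and that of Bcl2a1d matched each of them at 49.
Bcl2a1a, chr9:88956770-88956869, plus strand, GRCm38.p6: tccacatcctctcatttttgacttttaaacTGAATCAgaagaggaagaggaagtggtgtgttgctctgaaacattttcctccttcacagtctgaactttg
Bcl2a1b, chr9:89199079-89199178, plus strand, GRCm38.p6: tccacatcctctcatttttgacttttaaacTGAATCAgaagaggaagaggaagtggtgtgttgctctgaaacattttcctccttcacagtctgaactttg
Bcl2a1d, chr9:88731895-88731994, minus strand, GRCm38.p6: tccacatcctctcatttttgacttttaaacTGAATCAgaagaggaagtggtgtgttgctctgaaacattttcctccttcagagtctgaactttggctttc

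Because the A1 genes are known from leukocytes, 9 leukocyte markers were read beside them. Of 7 tested, Ptprc, Lyz2 and Itgam were called higher, 3 of 7 beside 34.2% of all genes, and Cd3e, S100a9, Csf1r and Adgre1 were not called. With total counts 5 were called higher, beside 56.4%. The summed level of the list was 72.4 to 168.0 CPM in controls and 109.5 to 408.1 CPM with puberulic acid, overlapping between the groups. It too was lowest in replicate 1 and highest in replicate 4 of the puberulic acid samples. This was not particular to leukocyte markers, as Bax, Bak1 and Mcl1 had the same lowest and highest samples. So did the summed proliferation markers, at 66.0 CPM in replicate 1 and 216.7 CPM in replicate 4. The T cell marker Cd3e was at most 1.03 CPM and the neutrophil marker S100a9 at most 0.685 CPM in any sample, while the B cell marker Cd79a and S100a8 did not pass the filter. The part of leukocytes in the A1 result was not tested.

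Of the other pore-forming and BH3-only genes, Bok, a pore former that is not held by the pro-survival proteins, rose with a log2 fold change of 1.11 ± 0.16 (SE, n = 5 in each group, edgeR adjusted p = 6.22e-05). Bmf, a BH3-only gene tied to cell detachment, rose with a log2 fold change of 0.79 (edgeR adjusted p = 0.000691). Bad, a BH3-only gene controlled by growth factor signalling, fell by 0.42 on the log2 scale (edgeR adjusted p = 0.00184), a direction that total counts reversed to 0.09. Hrk and Bcl2l10 did not pass the filter, with at most 3 and 0 counts in a control library and at most 25 and 2 with puberulic acid.

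Bnip3, a mitophagy receptor known as a target of hypoxia-inducible factor, fell most of the family. It had 195.6 to 233.6 CPM in controls and 46.4 to 82.4 CPM with puberulic acid. This was a log2 fold change of -1.89 ± 0.16 (SE, n = 5 each, edgeR adjusted p = 8.49e-07). Its relative Bnip3l was not called, at -0.23 (edgeR adjusted p = 0.0596). It was called lower, at -0.28 to -0.30, in the fits without control replicate 4 or 5 or puberulic acid replicate 4 or 5, and at -0.25 with RLE scaling or DESeq2. It was called higher, at 0.28, with total counts. The pro-survival gene Bcl2l2, which encodes BCL-W, had a log2 fold change of -0.29 (edgeR adjusted p = 0.0462), which was not kept in 9 of 19 alternatives. It was lost in the fits without control replicate 1, 2 or 3 or puberulic acid replicate 3 or 4, at -0.22 to -0.32. Bcl2l15, Bcl2l14 and Bcl2l13 rose, with log2 fold changes of 3.16, 0.93 and 0.51, the first from 1 to 7 counts per control library and at 3.82 without control replicate 3, and Bcl2l12 at 0.24 was not called.

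Downstream and upstream of the family, 47 genes of the apoptosis pathway were listed by role. Of these 45 were tested, and 21 were called higher and 13 lower, beside 34.2% and 31.1% of all genes. Their median log2 fold change was 0.38. With total counts 33 were called higher and 5 lower, beside 56.4% and 15.5% of all genes.

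Among 10 genes of the caspases and the apoptosome, the complex that cytochrome c sets off, 3 were called higher and 2 lower, so 5 of 10 were called beside 65.3% of all genes. With total counts 8 were called, all higher, beside 56.4% of all genes called higher and 15.5% lower. Apaf1, its scaffold, had 4.72 ± 3.49 CPM on average across controls and 18.1 ± 4.15 CPM across puberulic acid samples (SD, n = 5 each), with 10.8 CPM in control replicate 3 and 2.32 to 4.17 CPM in the other controls. Its log2 fold change was 1.95 ± 0.37 (SE, edgeR adjusted p = 0.000649). Casp2 rose by 0.78 on the log2 scale. Cycs, which encodes cytochrome c itself, fell by 0.56 (edgeR adjusted p = 0.000913) and Casp6 by 0.26 (edgeR adjusted p = 0.0244), and with total counts Cycs was at -0.05 with no call and Casp6 was called higher at 0.25. The call of Casp6 was also lost without puberulic acid replicate 3, at -0.22, with upper-quartile scaling, at -0.17, and with no filter on low counts, at -0.27.

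Of 8 genes for inhibitor of apoptosis (IAP) proteins and their antagonists, 4 were called higher and 3 lower, beside 34.2% and 31.1% of all genes, and with total counts 5 higher and 1 lower, beside 56.4% and 15.5%. Birc5, or survivin, which also serves in cell division, went from 0.791 to 1.6 CPM in controls to between 5.57 and 19.9 CPM. This was a log2 fold change of 3.73 ± 0.34 (SE, n = 5 each, edgeR adjusted p = 2.08e-06). The 4 proliferation markers were called higher too. Birc3, an NF-kappaB target that restrains cell death at the tumour necrosis factor receptor, rose from 6.05 to 10.5 CPM to between 42.4 and 68.7 CPM. This was a log2 fold change of 2.75 ± 0.17 (SE, n = 5 each, edgeR adjusted p = 1.19e-07). Birc6, a giant ubiquitin ligase, fell by 1.18 on the log2 scale (edgeR adjusted p = 4.67e-07). The IAP antagonist Htra2 fell by 0.34 (edgeR adjusted p = 0.0135), against 0.18 with total counts and -0.24 with upper-quartile scaling, neither called.

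In the death receptor arm, 5 of 9 genes were called higher and 2 lower, beside 34.2% and 31.1% of all genes, and with total counts 6 higher and 1 lower, beside 56.4% and 15.5%. Tnfrsf10b, the mouse TRAIL receptor, had 1.96 ± 0.431 CPM in control kidneys and 16.4 ± 2.38 CPM after puberulic acid (SD, n = 5 each), and its log2 fold change was 3.07 (edgeR adjusted p = 7.2e-08). Tnfrsf1a, a tumour necrosis factor receptor, rose by 1.05 on the log2 scale. Tnfrsf21, or death receptor DR6, had 443.5 ± 42.3 CPM in control kidneys and 141.9 ± 9.43 CPM after puberulic acid (SD, n = 5 each), and its log2 fold change was -1.64 (edgeR adjusted p = 4.59e-08). The adaptor Fadd fell by 0.49 on the log2 scale (edgeR adjusted p = 0.00301), against 0.02 with total counts and no call.

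Of 8 tested genes for mitochondrial partners and turnover factors, 2 were called higher and 5 lower, beside 34.2% and 31.1% of all genes. With total counts 5 were called higher and 3 lower, beside 56.4% and 15.5%, and Endog and Aifm1 were still called lower. Endog and Aifm1, nuclease and flavoprotein released from mitochondria, had log2 fold changes of -1.71 ± 0.16 and -1.45 ± 0.08 (SE, n = 5 in each group, edgeR adjusted p = 2.58e-06 and 4.83e-08). Usp9x, which spares MCL-1 from breakdown, and Fbxw7, which promotes that breakdown, both rose, by 0.48 and 0.38 on the log2 scale (edgeR adjusted p = 0.00067 and 0.0182). The call of Fbxw7 was lost without control replicate 4 or puberulic acid replicate 2 or 4, at 0.29 to 0.34, and with the replicate block, at 0.37. Of 11 upstream regulators 10 were tested, 7 were called higher and 1 lower, beside 34.2% and 31.1% of all genes, and with total counts 9 were called, all higher, beside 56.4% higher and 15.5% lower. Myc and E2f1 rose most, with log2 fold changes of 3.03 ± 0.33 and 2.02 ± 0.21 (SE, n = 5 in each group, edgeR adjusted p = 7.45e-06 and 4.44e-06). Foxo1, known as an activator of Bcl2l11 and Bbc3, fell by 0.61 (edgeR adjusted p = 0.000305), against -0.10 with total counts and no call.

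**Figure D4:**
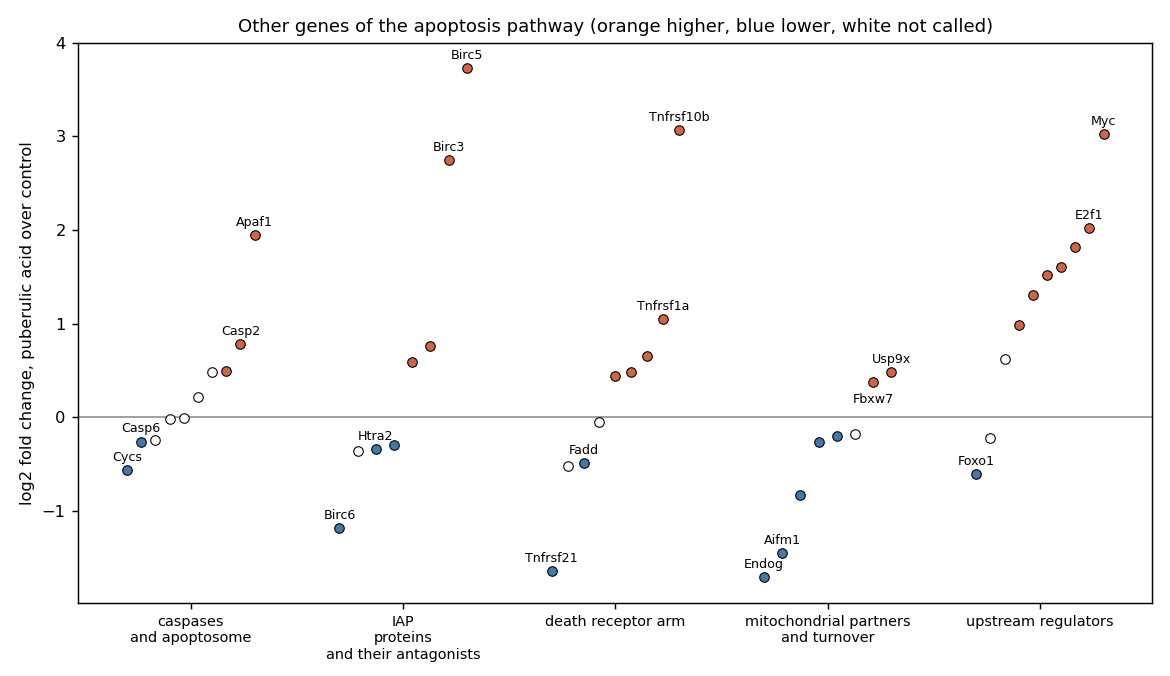
Log2 fold change of puberulic acid over control (vertical axis) for the 45 tested genes of the apoptosis pathway, in 5 groups by role and sorted within each. Orange points were called higher (21), blue lower (13), white not called (11), and the names are those picked by rule from each list.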

How the data were processed

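Per the file header and its values, the authors deposited 1 table of estimated counts (not whole numbers, no normalization stated). The submitters' processing notes name fastp 0.22.0, Salmon 1.10.3, DESeq2 and the build GRCm39, with no role or order, and the annotation is not given in the sources used here. Columns were assigned by name, and 10 columns were not used. Symbols were found for 51344 of 55822 gene identifiers. Counts were rounded, filtered with filterByExpr, scaled by TMM and tested with glmQLFit and glmQLFTest of edgeR 4.0.16 in R 4.3.3 on the 5 control and 5 puberulic acid samples. Each SE is |log2 fold change| over the root of F. The script was tested on simulated data in which few genes changed, as many up as down. That test does not cover the shift between scalings seen here. With 0 counts a library allows up to 3, or 0.158 to 0.195 CPM for controls and 0.0964 to 0.128 CPM for puberulic acid, for counting error only, as no molecular identifiers are stated. The labels number samples but do not state that each is a separate mouse. The p-values thus set the difference between groups against the spread of these samples, which may not be that between mice.

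The members and all lists were chosen with earlier results of these data known. Named were the members, the other family genes, and from each pathway list the 2 called genes with the largest change in each direction at a mean of at least 1 CPM. Promoters came from RefSeq and transcript lengths from GENCODE M21, both on GRCm38, and the motifs were picked after the values were seen. Alternatives were other scalings (RLE, upper quartile, total counts), other filters, DESeq2 1.42.0, a robust fit, omitting the mitochondrial genome with the 10 most abundant genes, a replicate block, and omitting 1 sample at a time.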

Additional observations from a re-analysis of the deposited data

Results flagged for a closer look

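A sample is listed here when it lay farther from its nearest neighbour than 0.71 of the spread of all 5 samples of its group. Members, other family genes and count ratios gave 54 sets of 5 values, and 8 sets held such a sample. Chance would give about 2.7 among independent sets, but these are related. Control replicate 1 was the highest control for Bak1, with 38.7 CPM against 16.5 to 21.4 CPM (gap 0.783), for the ratio of Bak1 to Mcl1 (0.729) and for Bcl2a1b, with 1.37 CPM against 0.623 to 0.827 CPM (0.726). Control replicate 5 was the highest control for Pmaip1, with 16.8 CPM against 6.33 to 8.66 CPM (0.778). Control replicate 2 was the highest for Bcl2l2, with 57.7 CPM against 44.4 to 46.8 CPM (0.816), and without it the log2 fold change of Bcl2l2 was -0.22 and no longer called. Control replicate 3 was the highest for Bmf, with 11.5 CPM against 7.96 to 8.31 CPM (0.9). Puberulic acid replicate 1 was the lowest of its group for Bok, with 33.7 CPM against 49.8 to 52.0 CPM (0.88), and the highest for Bcl2l13, with 70.9 CPM against 43.8 to 50.9 CPM (0.739).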

How the results depend on the processing

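Over 19 alternatives, 8 of the 10 members kept their direction and their call in each, and Bcl2 and Bik did not. Total-count scaling gave Bcl2 a log2 fold change of 0.37 (edgeR adjusted p = 0.0201, range over its alternatives 0.0201 to 0.763) and Bik one of -0.10 (edgeR adjusted p = 0.58, range 0.000322 to 0.58), so that 1 member was called lower. With it 9179 genes were called higher and 2526 lower, 1 other family gene was lower, and 33 pathway genes were higher and 5 lower. It reversed Bcl2l2 to 0.22, Bad to 0.09, Bnip3l to 0.28, Casp6 to 0.25, Htra2 to 0.18 and Fadd to 0.02. Leaving out 1 sample in turn kept 7 members higher and 2 lower each time. The fits without 1 sample called 10 to 12 other family genes and 32 to 37 pathway genes, beside 10104 to 11108 of all genes. Replicate numbers did not pair the samples: deviations of same-numbered samples correlated at -0.0429 on average (-0.163 to 0.0159). With the replicate block 9 members, 11 other family genes, 32 pathway genes and 10325 genes in all were called. Bcl2l10 and Hrk had too few counts to pass the filter of the main fit, and the part of depth in this was not tested. With no filter on low counts 9 other family genes were called higher, against 8 in the main fit. The added call was Bcl2l10 or Hrk, as no other gene of that list gained a call.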

Other observations

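Control replicate 1, the highest control for Bak1, had the lowest summed proximal tubule markers of the controls, 7111 CPM against 9948 to 11248 CPM. This was singled out once the data had been looked at.

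Control replicate 4 had the highest summed leukocyte markers of the controls, 168.0 CPM against 72.4 to 108.1 CPM, and the highest Bcl2a1a, 1.31 CPM against 0.0649 to 0.628 CPM. It was the lowest control for Bcl2a1b, at 0.623 CPM, and stood below control replicate 1 for Bcl2a1d, at 0.997 against 1.26 CPM.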
